A study of Mus musculus with 5 samples.

Results

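The genes described here are the inward-rectifier, tandem-pore and calcium-activated potassium channels of the mouse, with proteins that assemble with or regulate potassium channels. They were chosen by symbol alone, as the autosomal protein-coding genes named Kcn followed by i, j, k, m, n, r, t or u, and 46 of 21728 protein-coding genes met the rule. They comprised 15 inward rectifiers (Kcnj), 14 tandem-pore channels (Kcnk), 8 genes of the Slo channels and their beta subunits (Kcnma1, Kcnmb1 to Kcnmb4, Kcnt1, Kcnt2 and Kcnu1), 4 small and intermediate conductance calcium-activated channels (Kcnn), and 5 genes of the Kcnip and Kcnrg names. The rule by letter is wider than the channel classes. Kcnip1 to Kcnip4 encode calcium-binding partners of voltage-gated channels, Kcnrg encodes a regulator of voltage-gated channels, and neither forms a pore.

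H3K27me3, a repressive histone mark deposited by Polycomb repressive complex 2, was mapped by ChIP-seq in dermal fibroblasts from late embryonic mouse skin expanded in culture. Kdm6b-cKO cells (replicates 3 and 4) came from Dermo1Cre-Kdm6b fl/fl embryos of C57BL/6 background, in which Cre driven by Dermo1 (Twist2) deletes the H3K27 demethylase Kdm6b, also named Jmjd3, in dermal fibroblasts, and WT cells (replicates 7 and 9) were their comparison. All libraries shared the AmnioMAX culture, and the labels describe a sort for GFP as the sign of deletion for every sample, WT included. Nothing in the labels or methods says that the 2 libraries of a genotype came from separate embryos, so p-values measure only the spread between these libraries. In a bulk culture, a mark carried by more cells and a heavier mark in each cell cannot be told apart.

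The values are lengths of DNA covered by the broad peaks that the authors called in each library on its own. Peak lists carry no read counts, which leaves the depth under a peak unknown, and they do not measure the deletion of Kdm6b. The Kdm6b-cKO lists held 44077 and 40565 peaks over 148.3 and 123.9 Mb of the autosomes and X, and the WT lists held 29841 and 22597 peaks over 91.4 and 61.5 Mb. Both Kdm6b-cKO libraries therefore covered more of the genome than either WT library, and the part of this difference in any gain given below was not tested except by the alternatives with equal lists. For the labelled cell type, none of 10 fibroblast marker promoters was marked in any library, whereas 5 of 6 keratinocyte and 4 of 4 neuronal marker promoters were marked in at least 1 library. Endothelial and immune markers were marked at 1 of 4 promoters each.

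Potassium channels let potassium leave or enter the cell and thereby set the resting potential. Inward rectifiers pass current more readily into the cell than out of it and include the ATP-sensitive and G protein-gated channels. Tandem-pore channels are open at rest and carry background current, and calcium-activated channels open when calcium rises within the cell. Many of these genes are best known from nerve, muscle, kidney or endocrine cells, and genes of other lineages are frequent carriers of H3K27me3 in differentiated cells.

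The promoters of 4 of these genes are shown because they had the largest differences between genotypes in the covered share of the promoter among the genes given library by library. Each run is 250 bases before and 50 bases after the RefSeq start on GRCm38.p6, the assembly behind mm10, and 38 of the 46 genes matched an entry of that promoter table. Capitals mark the dinucleotide CG, which reads the same on both strands and so overlaps itself on the opposite strand.
Kcnk18: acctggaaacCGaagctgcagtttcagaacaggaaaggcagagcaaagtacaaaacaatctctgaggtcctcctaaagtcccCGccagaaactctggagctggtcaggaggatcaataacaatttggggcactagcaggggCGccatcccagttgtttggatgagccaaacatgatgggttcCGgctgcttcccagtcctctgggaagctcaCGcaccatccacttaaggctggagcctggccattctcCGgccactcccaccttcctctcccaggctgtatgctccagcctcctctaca
Kcnmb3: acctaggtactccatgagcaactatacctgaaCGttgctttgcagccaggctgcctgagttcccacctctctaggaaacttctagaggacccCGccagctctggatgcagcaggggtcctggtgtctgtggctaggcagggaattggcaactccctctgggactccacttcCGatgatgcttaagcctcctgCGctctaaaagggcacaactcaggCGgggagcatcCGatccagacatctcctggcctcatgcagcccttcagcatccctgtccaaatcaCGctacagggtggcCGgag
Kcnip2: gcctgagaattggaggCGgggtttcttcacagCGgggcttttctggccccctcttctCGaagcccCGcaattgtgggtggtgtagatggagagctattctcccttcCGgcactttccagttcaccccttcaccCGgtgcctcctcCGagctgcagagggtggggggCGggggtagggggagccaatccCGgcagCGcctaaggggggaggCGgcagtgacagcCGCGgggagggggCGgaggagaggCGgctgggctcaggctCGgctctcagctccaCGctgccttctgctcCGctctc
Kcnn3: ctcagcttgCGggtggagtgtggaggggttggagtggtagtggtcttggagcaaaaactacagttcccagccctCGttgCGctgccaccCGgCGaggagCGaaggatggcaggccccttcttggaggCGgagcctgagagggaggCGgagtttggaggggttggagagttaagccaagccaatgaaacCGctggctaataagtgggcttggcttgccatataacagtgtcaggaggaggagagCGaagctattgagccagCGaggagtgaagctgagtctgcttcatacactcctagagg

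The Kcnk18 sequence lies at chr19:59219398-59219697 on the plus strand and holds 6 CG, a number reached by 56.8% of 32619 RefSeq promoters of this length. Its start is 434 bp from the GENCODE start used for the windows below. Peaks covered 300 and 225 bases of it in Kdm6b-cKO replicates 3 and 4 and 0 bases in both WT libraries. The Kcnmb3 sequence (chr3:32491920-32492219, minus strand) holds 8 CG, reached by 48.9% of promoters, and was covered over 300 bases in Kdm6b-cKO replicate 3 and over 0 bases in Kdm6b-cKO replicate 4 and both WT libraries. The mark at Kcnmb3 thus reached this sequence in only 1 of the 4 libraries.

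The Kcnip2 sequence (chr19:45816014-45816313, minus strand) is the richest of the 4, with 18 CG, reached by 29.9% of promoters. It was covered in full in both Kdm6b-cKO libraries and in WT replicate 7, and not at all in WT replicate 9. The Kcnn3 sequence (chr3:89519914-89520213, plus strand) holds 11 CG, reached by 41.7% of promoters, and was covered in full in all 4 libraries. At Kcnn3 the genotypes therefore differed in the flanks of the promoter and not over these 300 bases. The CG counts are a description of these windows.

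The first question was how many of these promoters carried the mark at all. A promoter was the 6 kb window of 3 kb on either side of the transcription start site (TSS, the 5′ end of the GENCODE M21 gene on mm10), and it was called marked when at least 500 bp of it was covered. Of the 46 channel genes, 37 were marked in at least 1 library (80.4%), against 28.8% of all genes. All 4 libraries marked 27 of them (58.7%), against 15.2% of all genes. By library, 37 and 32 were marked in Kdm6b-cKO replicates 3 and 4, and 29 and 27 in WT replicates 7 and 9. Most channel promoters were thus already marked in WT cells.

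Of the related channel families, the voltage-gated one was marked more often by count and the calcium and sodium channels less often. Among 46 voltage-gated potassium channel genes, 44 were marked in at least 1 library and 36 in all 4, and among 43 calcium and sodium channel genes these counts were 28 and 21. These family counts were not compared by a test.

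By subfamily, the promoters marked in all 4 libraries were 10 of 15 inward rectifiers, 7 of 14 tandem-pore genes, 4 of 8 Slo and beta subunit genes, 2 of 4 Kcnn genes and 4 of 5 Kcnip and Kcnrg genes. The window was covered over its full 6 kb in every library at 7 of the 46 channel genes, against 637 of all 21728 genes. The 7 were Kcnj4 and Kcnj12, strong inward rectifiers of the classical kind, Kcnj9, a G protein-gated subunit, Kcnj10, the main inward rectifier of glia, and the tandem-pore genes Kcnk1, Kcnk12 and Kcnk15. A window already full in WT cells could show no gain at this width.

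**Figure D1:**
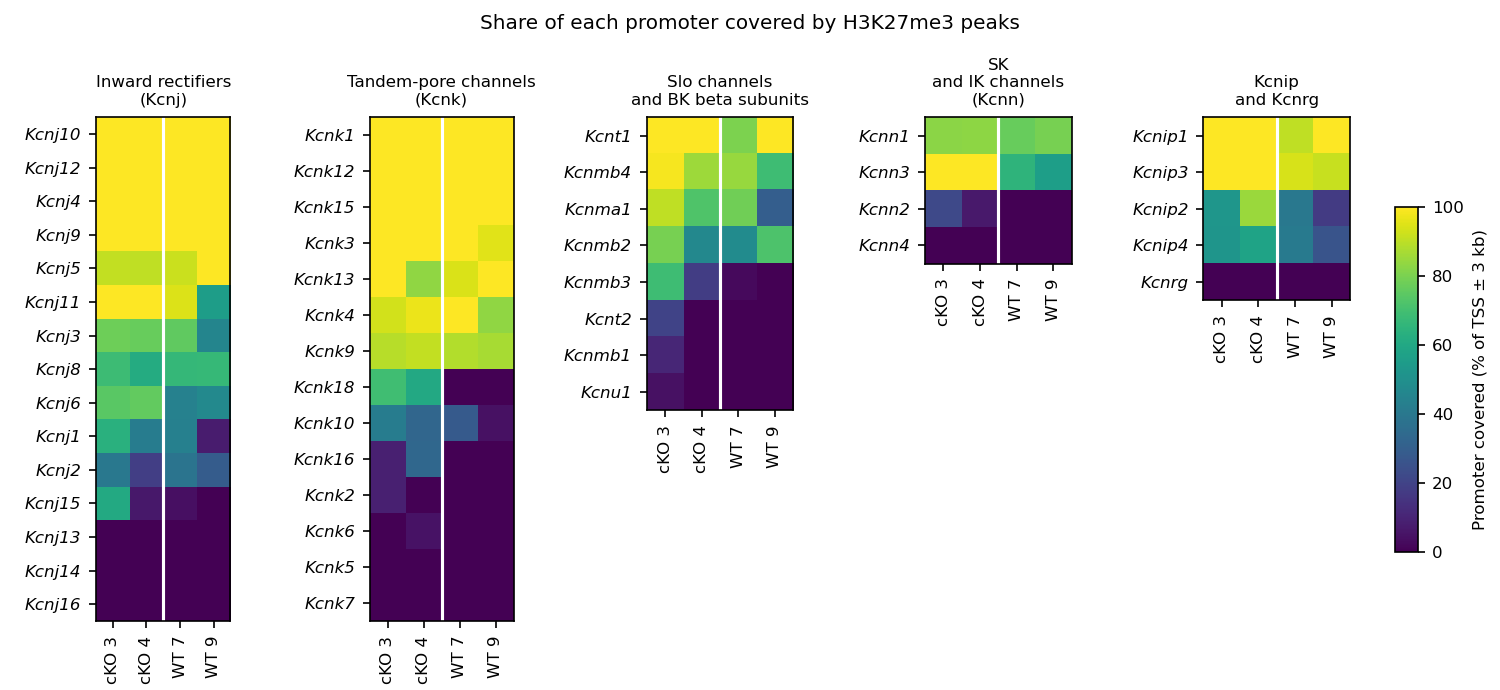
Percent of TSS ± 3 kb covered by H3K27me3 peaks (colour scale, 0 to 100%) for each of the 46 genes (rows, in 5 subfamily panels) in the 2 Kdm6b-cKO and 2 WT libraries (columns). Uniform rows at 100% include Kcnj10 and Kcnk15, while Kcnk18 is at 69.2% and 60.4% in the Kdm6b-cKO libraries and at 0% in both WT libraries.

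A promoter marked in both Kdm6b-cKO libraries and in neither WT library was found at 3 of 46 genes (Kcnk16, Kcnk18 and Kcnmb3), against 4.28% of all genes. Among promoters marked in at least 1 library, this pattern was found at 3 of 37 channel genes and at 929 of 6251 genes. The opposite pattern was found at 0 of 46 genes, against 0.069% of all genes. A further 7 genes were marked in other combinations of libraries (Kcnj1, Kcnj15, Kcnk2, Kcnk10, Kcnmb1, Kcnt2 and Kcnn2). The remaining 9 were marked in none (Kcnj13, Kcnj14, Kcnj16, Kcnk5, Kcnk6, Kcnk7, Kcnu1, Kcnn4 and Kcnrg).

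Kcnk18 encodes a tandem-pore channel of sensory neurons that calcium signalling regulates through calcineurin. Its gene lies on chromosome 19 from 59219214 to 59237374 on the plus strand, and peaks took up 69.2% and 60.4% of the promoter window in Kdm6b-cKO libraries, against 0% in both WT libraries. The difference of 64.8 ± 3.98 percentage points (limma SE, n = 2 each) passed the test, with an adjusted p of 0.029. The values of the genotypes did not overlap. The call was lost without WT replicate 7 (limma adjusted p = 0.124) and without WT replicate 9 (adjusted p = 0.173), with the difference unchanged at 64.8 points, and also with equal peak numbers (57.9 points, adjusted p = 0.118). With the other lists cut to their strongest peaks up to the total length of WT replicate 9, 0 bp of this promoter was covered in any library. The same held with every list cut to peaks whose −log10 q from the authors' caller was at least 4. The promoter entered no test in either case.

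Kcnk16, a tandem-pore channel of pancreatic islet cells, had peaks over 8.65% and 33.4% of the promoter window in Kdm6b-cKO libraries and 0% in both WT libraries. Its lower Kdm6b-cKO value lay just past the minimum of 500 bp. The difference was 21.0 ± 11.0 points and did not pass (limma adjusted p = 0.397). Kcnmb3, a beta subunit of the large-conductance BK channel, had 69.0% and 18.1% in Kdm6b-cKO libraries, against 2.72% and 0% in WT libraries. Its difference of 42.2 ± 22.5 points did not pass either (limma adjusted p = 0.409), and the Kdm6b-cKO libraries differed from each other by more than the lower one differed from WT.

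Across the promoter window, limma was fitted to the 6251 genes with at least 500 bp covered in at least 1 library, and p-values were adjusted by the Benjamini-Hochberg method over all of them with a threshold of 0.05. Of the 37 channel genes in this fit, 2 had a larger covered share in Kdm6b-cKO (Kcnj6 and Kcnk18), against 7.93% of all genes tested. None of the 37 was lower, against 0.096% of all genes tested. An unadjusted p under 0.05 was reached by 5 higher and 0 lower, against 25.6% and 0.704% of all genes tested by limma. The median difference over the 37 was 5.31 points, against 11.7 points over all genes tested. The channel promoters thus had a smaller median difference than tested promoters in general. The window was full in every library at 7 of the 37, against 637 of the 6251 genes tested.

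Kcnj6 encodes a G protein-gated inward rectifier subunit of neurons and lies on chromosome 16 from 94748636 to 94997701 on the minus strand. Peaks covered 74.5% and 76.2% of its promoter in Kdm6b-cKO libraries, against 43.9% and 47.0% in WT libraries. The difference was 29.9 ± 1.75 points (limma adjusted p = 0.028). Each library held a single peak within 25 kb of the TSS, with lengths of 4.92 and 5.56 kb in Kdm6b-cKO fibroblasts and 2.63 and 2.82 kb in WT fibroblasts. The added length lay downstream of the TSS, where covered length was 2.56 kb larger in Kdm6b-cKO, against -0.05 kb upstream. The 4 libraries were each needed for the call, with limma adjusted p of 0.091 without Kdm6b-cKO replicate 3, 0.091 without Kdm6b-cKO replicate 4, 0.070 without WT replicate 7 and 0.098 without WT replicate 9.

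The number of channel promoters past the test depended on single libraries. It was 7 of 37 without Kdm6b-cKO replicate 4, where 22.9% of all genes tested were higher, and 0 without WT replicate 9, where 0 of all 6221 genes tested passed. A promoter without peaks could show no gain, and 37 of 46 channel promoters were marked in at least 1 library, against 6251 of 21728 genes. Each Kdm6b-cKO library exceeded either WT library at 16 of 46 channel promoters, against 3151 (14.5%) of all genes. Among promoters with at least 1 bp covered in at least 1 library, these were 16 of 39 channel promoters and 3151 of 6849 genes. The reverse held at 1 channel promoter, Kcnj5, a G protein-gated subunit of the heart, against 0.741% of all genes. Its shares were 90.9% and 90.4% in Kdm6b-cKO libraries and 91.8% and 100% in WT libraries, with a difference of -5.26 ± 3.70 points that did not pass (limma adjusted p = 0.53).

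A wider window, 25 kb on either side of the TSS, was used to ask how far the mark spread around each gene. In this 50 kb window 42 of the 46 genes held at least 500 bp of peak in at least 1 library and entered the test. Kcnj13, an inward rectifier of the retinal pigment epithelium, Kcnj16, a partner of Kcnj10 in kidney and brain, Kcnk7 and Kcnrg held no mark within 25 kb in any library. The median covered length over the 46 genes was 8.50 and 8.10 kb in Kdm6b-cKO replicates 3 and 4, and 4.89 and 4.40 kb in WT replicates 7 and 9.

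More DNA was covered in Kdm6b-cKO at 6 of the 42 genes tested (14.3%), against 7.69% of 11829 genes tested. None of the 42 was lower, against 0% of all genes tested. At an unadjusted p under 0.05, limma gave 17 higher and 0 lower, against 33.8% and 0.144% of all genes tested. The 6 were Kcnj11 and Kcnj12 among inward rectifiers, Kcnk1 and Kcnk15 among tandem-pore channels, Kcnt1 among Slo channels and Kcnn3 among Kcnn channels. No gene of the Kcnip and Kcnrg names passed. Each Kdm6b-cKO library exceeded either WT library at 32 of 46 genes, against 35.9% of all genes and 65.3% of those with at least 500 bp covered. Each was below either WT library at 0 of 46 genes, against 0.939% of all genes.

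The median difference over the 42 genes tested was 3.66 kb, against 2.41 kb over all genes tested. It was 4.66 kb over 44 voltage-gated potassium channel genes tested, of which 9 were higher, and 5.32 kb over 36 calcium and sodium channel genes tested, of which 8 were higher. Both other channel families thus had larger medians than the genes described here, with no test of these differences. After each library's mean was subtracted, the median over the 42 genes tested changed sign to -0.39 kb, and that over all genes tested was -1.64 kb.

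**Figure D2:**
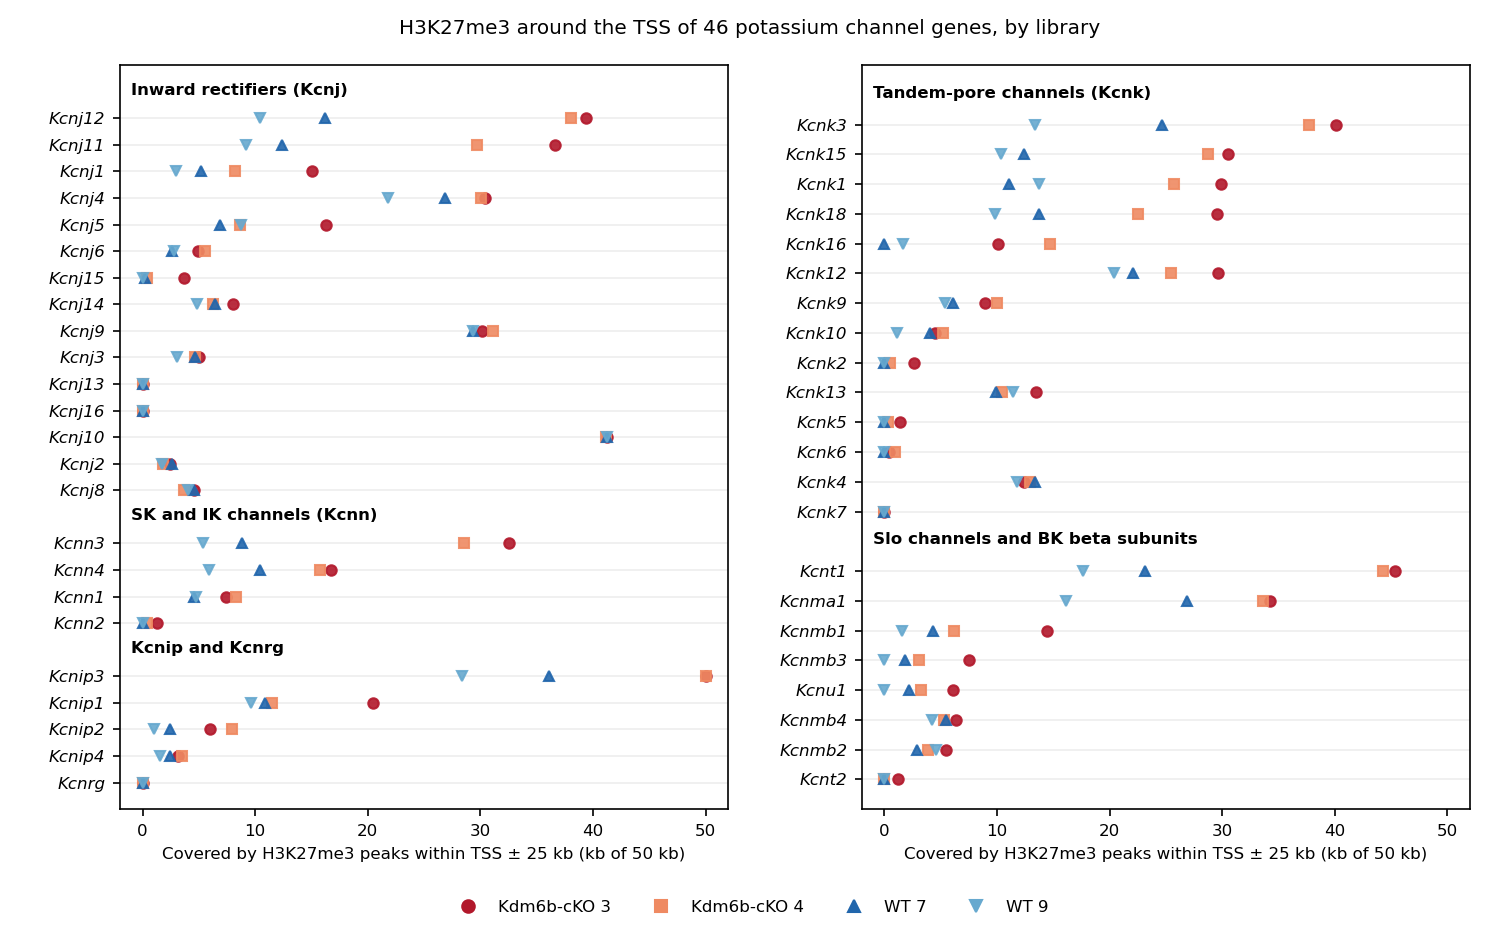
Kilobases covered by H3K27me3 peaks within TSS ± 25 kb (x axis, of 50 kb) for each of the 46 genes (rows, ordered within subfamilies by the difference), with 1 point per library. Kdm6b-cKO points (circles and squares) lie right of WT points (triangles) at 32 genes, for instance at Kcnk15 with 30.5 and 28.7 kb against 12.4 and 10.4 kb.

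**Figure D3:**
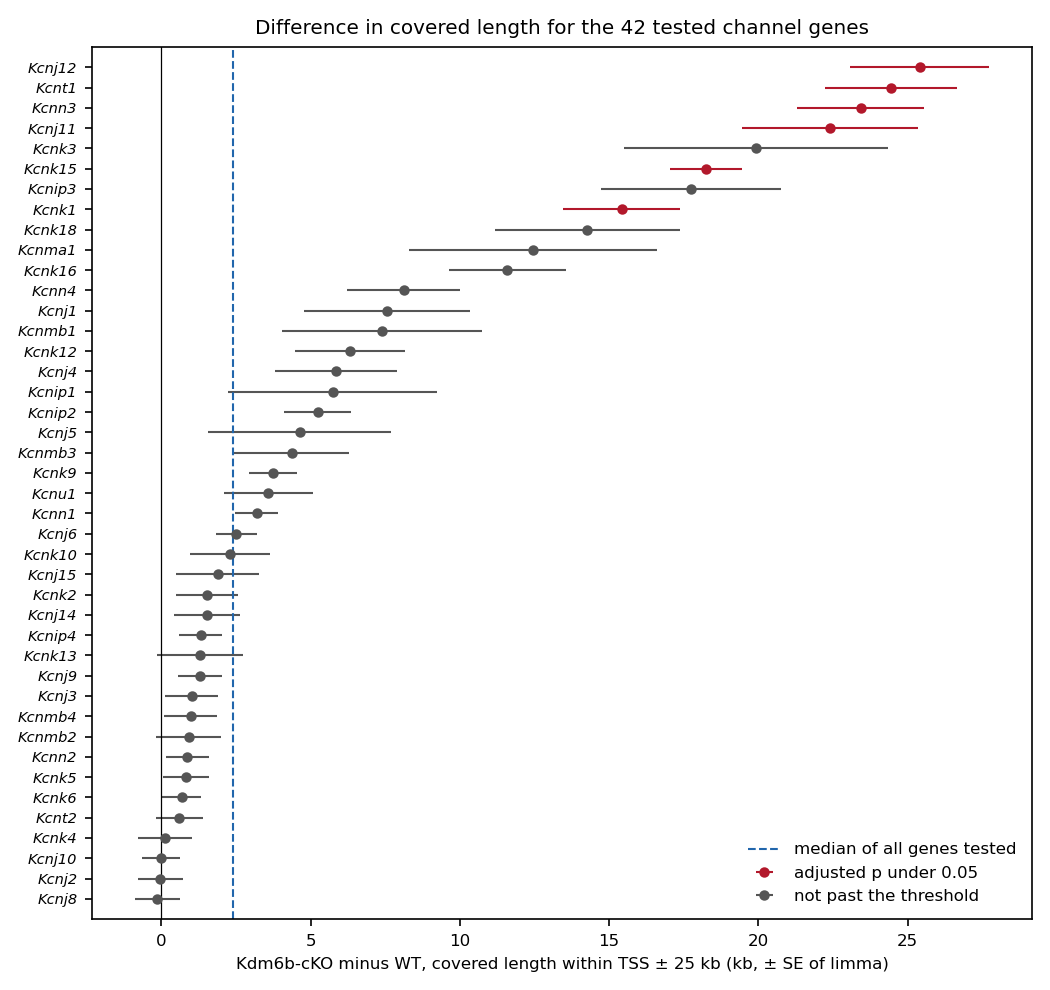
Kdm6b-cKO minus WT covered length within TSS ± 25 kb (x axis, kb, bars show the limma SE, n = 2 libraries each) for the 42 genes tested. The 6 genes past the threshold (red) lie between 15.4 and 25.4 kb, the dashed line marks the median of all genes tested at 2.41 kb, and the lowest value is -0.14 kb at Kcnj8.

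Among the inward rectifiers, Kcnj12 had the largest difference. It encodes a classical strong inward rectifier of heart and muscle and lies on chromosome 11 from 61022564 to 61071131 on the plus strand. Peaks covered 39.4 and 38.0 kb in Kdm6b-cKO libraries, against 16.2 and 10.4 kb in WT libraries. The difference was 25.4 ± 2.33 kb (limma adjusted p = 0.034), 2.91-fold. It was 7.47 kb with lists of equal covered length and 9.39 kb at a −log10 q of at least 4, and passed in neither. The promoter itself was full in every library, and the longest peak on it was 21.8 and 13.9 kb in Kdm6b-cKO fibroblasts, against 10.4 and 6.6 kb in WT fibroblasts. The gain lay on both sides, with 15.3 kb upstream and 10.1 kb downstream, and the gene body was covered over 52.3% and 40.1% in Kdm6b-cKO and 17.6% and 10.2% in WT.

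Kcnj11 encodes the pore of the ATP-sensitive potassium channel that couples glucose metabolism to insulin release in pancreatic beta cells. It is a short gene on chromosome 7 from 46093953 to 46100764 on the minus strand. Peaks covered 36.6 and 29.7 kb in Kdm6b-cKO libraries, against 12.4 and 9.19 kb in WT libraries, with no overlap. The difference was 22.4 ± 2.95 kb (limma adjusted p = 0.046), 3.07-fold. It lay almost wholly upstream, with 20.1 kb upstream and 2.32 kb downstream of the TSS.

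The gene upstream of Kcnj11 on the same strand is Abcc8, which encodes the sulfonylurea receptor that joins Kcnj11 in this channel, with its TSS at 46180033 against 46100764 for Kcnj11. Around the Abcc8 TSS peaks covered 31.7 and 35.5 kb in Kdm6b-cKO libraries, against 11.4 and 5.17 kb in WT libraries. Its difference of 25.3 ± 2.83 kb also passed (limma adjusted p = 0.039). The gene pair that forms this channel thus had more covered length around both start sites, and the gain upstream of Kcnj11 lay between them. The Kcnj11 call was kept with centring and in TSS ± 10 kb and TSS ± 50 kb. It was lost with equal peak numbers (20.8 kb, limma adjusted p = 0.081) and at a −log10 q of at least 4 (26.0 kb, adjusted p = 0.083). Equal covered length (21.4 kb, limma adjusted p = 0.108), no filter and leaving out any library also lost it.

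Kcnj8, the pore of the ATP-sensitive channel of vascular smooth muscle, did not pass the test. It had 4.58 and 3.70 kb covered in Kdm6b-cKO libraries and 4.55 and 4.01 kb in WT libraries, overlapping values with a difference of -0.14 ± 0.75 kb (limma adjusted p = 0.896). Its usual partner Abcc9 held no mark within 25 kb. Kcnj2, the best known strong inward rectifier of heart and muscle, had 2.44 and 1.84 kb in Kdm6b-cKO libraries and 2.60 and 1.75 kb in WT libraries, which also overlapped.

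Kcnj10 and Kcnj9 stand head to head on chromosome 1, and their 50 kb windows share 38.1 kb, so they are not independent. A single peak spanned both promoters, with lengths of 41.6 and 45.5 kb in Kdm6b-cKO fibroblasts and 43.2 and 42.8 kb in WT fibroblasts. The covered length around Kcnj10 was 41.2 kb in every library. The lengths of this block overlapped between genotypes, unlike those of the longest peak at Kcnj12.

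Kcnj1, the potassium secretory channel of the kidney, had 15 and 8.25 kb covered in Kdm6b-cKO libraries, against 5.15 and 2.98 kb in WT libraries. The difference of 7.57 ± 2.77 kb did not pass (limma adjusted p = 0.165). Its window shares 21.9 kb with that of Kcnj5. Kcnj6 differed by 2.51 ± 0.69 kb in the wide window, which did not pass (limma adjusted p = 0.107), although its promoter share did. The other inward rectifiers in the test (Kcnj3, Kcnj4, Kcnj5, Kcnj9, Kcnj14 and Kcnj15) differed by 1.02 to 5.85 kb, and none passed.

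Among the tandem-pore channels, Kcnk15 had the smallest adjusted p of the wide window. Its product belongs to the acid-sensitive TASK group but carries no current when expressed alone. The gene lies on chromosome 2 from 163853651 to 163859746 on the plus strand. Peaks covered 30.5 and 28.7 kb in Kdm6b-cKO libraries, against 12.4 and 10.4 kb in WT libraries. The difference was 18.2 ± 1.21 kb (limma adjusted p = 0.029), 2.60-fold, and lay downstream, with 17.2 kb downstream and 1.01 kb upstream of the TSS. The gene is 6.10 kb long, and its body was covered over 100% in each Kdm6b-cKO library and 76.3% and 66.8% in WT libraries. Most of the downstream gain therefore lay past the 3′ end of the gene. The longest promoter peak was 38.0 and 19.6 kb in Kdm6b-cKO fibroblasts, against 7.63 and 7.40 kb in WT fibroblasts.

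Kcnk15 kept its call under 7 of 11 alternatives, more than any other of the 6. It was the only one of the 6 still past the threshold when every list was cut to the same covered length, where 0.799% of 8512 genes tested were higher. The Kcnk15 call was lost without the filter on covered length (limma adjusted p = 0.101). It was also lost without Kdm6b-cKO replicate 3, without Kdm6b-cKO replicate 4 and without WT replicate 9, with differences of 17.3, 19.2 and 17.2 kb.

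Kcnk1 encodes a weakly conducting tandem-pore channel of kidney and brain and lies on chromosome 8 from 125995170 to 126030685 on the plus strand. Peaks covered 29.9 and 25.7 kb in Kdm6b-cKO libraries, against 11.0 and 13.7 kb in WT libraries. The difference was 15.4 ± 1.97 kb (limma adjusted p = 0.043), 2.25-fold, with 9.63 kb upstream and 5.79 kb downstream. The longest promoter peak was 25.7 and 16.9 kb in Kdm6b-cKO fibroblasts, against 10.2 and 11.3 kb in WT fibroblasts.

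Kcnk3, an acid-sensitive background channel of pulmonary artery and brain, had 40.1 and 37.7 kb covered in Kdm6b-cKO libraries, against 24.6 and 13.3 kb in WT libraries. Its difference of 19.9 ± 4.43 kb did not pass (limma adjusted p = 0.082), and it was 0.346 kb with lists of equal covered length. Kcnk18 differed by 14.3 ± 3.11 kb, with 29.6 and 22.5 kb in Kdm6b-cKO libraries and 13.7 and 9.85 kb in WT libraries, and did not pass (limma adjusted p = 0.080). With lists of equal covered length that difference was -0.009 kb.

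Kcnk16 had 10.1 and 14.7 kb covered in Kdm6b-cKO libraries, against 0 and 1.63 kb in WT libraries. The difference of 11.6 ± 1.96 kb did not pass (limma adjusted p = 0.059) and lay downstream, with 11.0 kb downstream and 0.59 kb upstream. Its gene body was covered over 41.7% and 83.2% in Kdm6b-cKO and 0% and 6.89% in WT. The remaining tested tandem-pore genes (Kcnk2, Kcnk4, Kcnk5, Kcnk6, Kcnk9, Kcnk10, Kcnk12 and Kcnk13) differed by 0.12 to 6.31 kb and none passed. The lowest was Kcnk4, a mechanosensitive channel of neurons, with 12.4 and 13 kb in Kdm6b-cKO fibroblasts and 13.3 and 11.8 kb in WT fibroblasts.

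**Figure D4:**
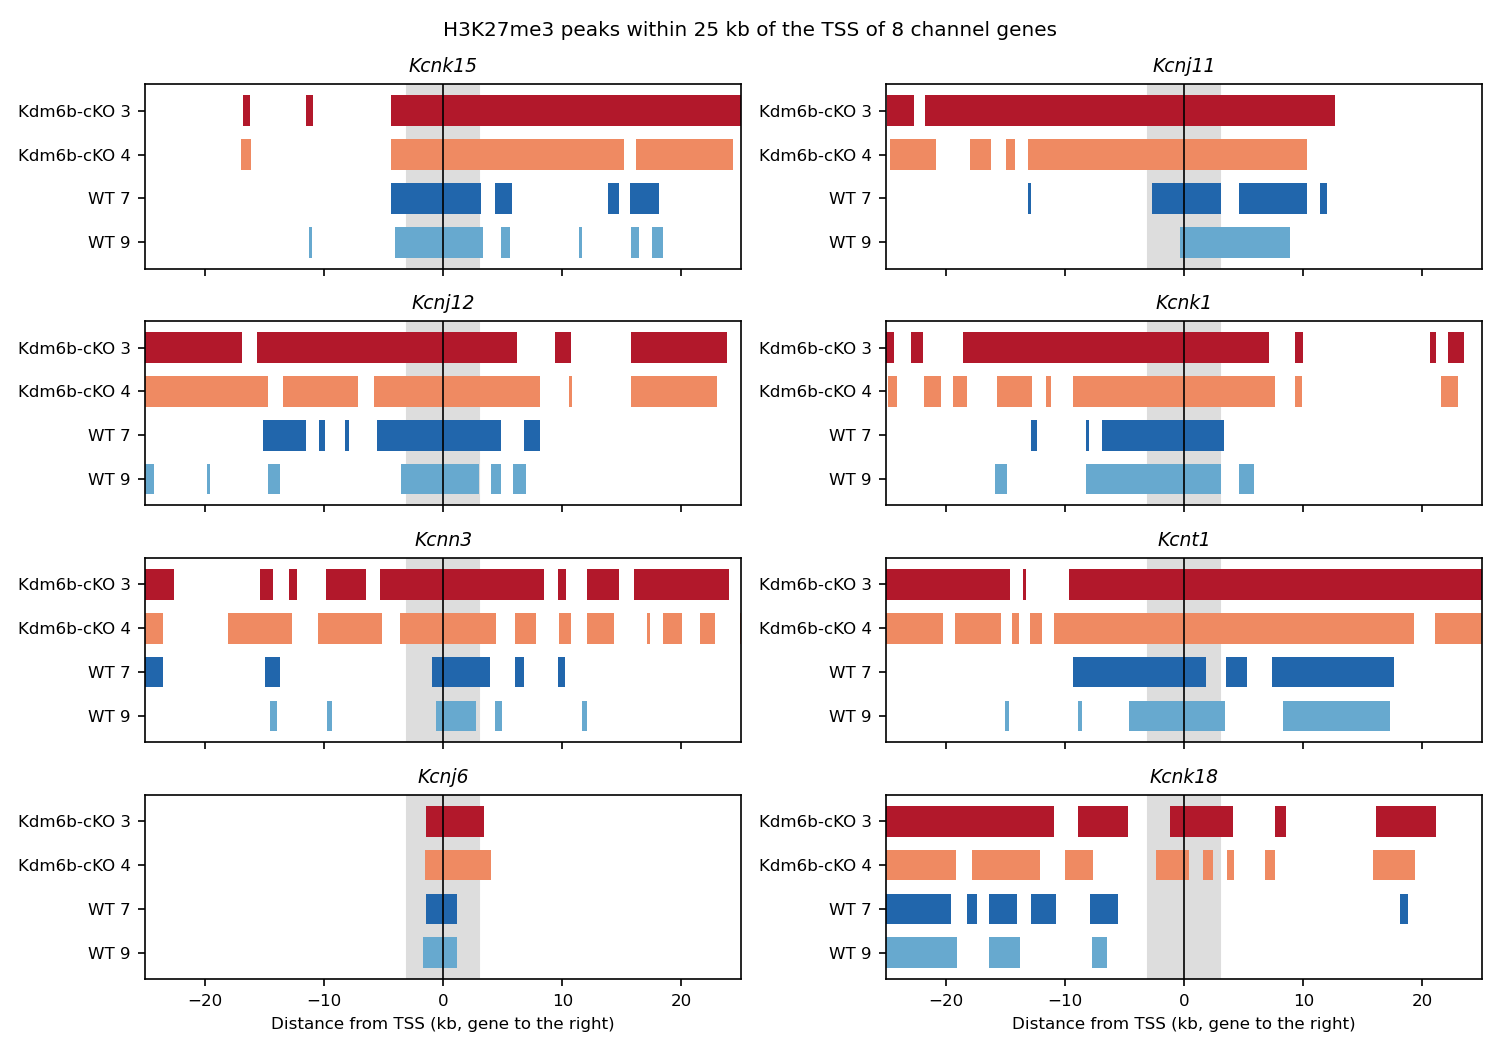
Positions of H3K27me3 peaks (bars, 1 row per library, Kdm6b-cKO above WT) by distance from the TSS (x axis, kb, each gene drawn to run to the right) for 8 genes past the test at either width, with TSS ± 3 kb shaded. Kcnk15 and Kcnj11 gain on opposite sides of the TSS, Kcnj6 has 1 peak in each library, and the Kcnk18 promoter holds peaks in the Kdm6b-cKO libraries alone.

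Of the Slo channels, Kcnt1 passed the test. It encodes a sodium-activated potassium channel of neurons and lies on chromosome 2 from 25863734 to 25918273 on the plus strand. Peaks covered 45.3 and 44.3 kb in Kdm6b-cKO libraries, against 23.1 and 17.6 kb in WT libraries. The difference was 24.4 ± 2.22 kb (limma adjusted p = 0.033), 2.2-fold, with 13.4 kb upstream and 11.0 kb downstream. Peaks filled 73.1% and 72.6% of the gene body in Kdm6b-cKO and 25.9% and 22.6% in WT.

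Kcnt1 was the only one of the 6 with the TSS of another protein-coding gene within 25 kb. That gene, Sohlh1, a transcription factor of germ cells, starts 16.5 kb upstream. Its promoter was covered over 82.7% and 73.3% in Kdm6b-cKO and 0% and 5.53% in WT, so the covered length upstream of Kcnt1 includes that promoter.

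Kcnma1, the pore of the calcium- and voltage-activated BK channel, had 34.3 and 33.6 kb covered in Kdm6b-cKO libraries, against 26.9 and 16.1 kb in WT libraries. The difference of 12.5 ± 4.15 kb did not pass (limma adjusted p = 0.143), and the WT libraries differed from each other by about as much. Kcnmb1, the BK beta subunit of smooth muscle, had 14.4 and 6.19 kb in Kdm6b-cKO libraries, against 4.29 and 1.53 kb in WT libraries, with a difference of 7.39 ± 3.36 kb (limma adjusted p = 0.225). Kcnmb1 lies within Kcnip1, and their windows share 19.9 kb. Kcnmb3 had 7.48 and 3.07 kb in Kdm6b-cKO libraries and 1.82 and 0 kb in WT libraries (difference 4.36 ± 1.92 kb, limma adjusted p = 0.217). Kcnmb2, Kcnmb4, Kcnt2 and Kcnu1, the sperm channel of this family, differed by 0.60 to 3.59 kb and none passed.

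At all 4 Kcnn genes each Kdm6b-cKO library covered more than either WT library, against 65.3% of all genes with at least 500 bp covered. Kcnn3 encodes a small-conductance calcium-activated channel that shapes firing in neurons and lies on chromosome 3 from 89520164 to 89675132 on the plus strand. Peaks covered 32.6 and 28.5 kb in Kdm6b-cKO libraries, against 8.85 and 5.37 kb in WT libraries. The difference was 23.4 ± 2.13 kb (limma adjusted p = 0.033), 4.29-fold, the largest ratio of the 6, and it was split evenly at 11.7 kb on each side of the TSS. Its promoter share was 100% in each Kdm6b-cKO library, against 65.1% and 56.2% in WT libraries, a difference of 39.4 ± 4.01 points just short of the threshold (limma adjusted p = 0.051). Its mark came as 8 and 11 separate peaks in Kdm6b-cKO and 5 and 5 in WT.

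Kcnn4, the intermediate-conductance channel of lymphocytes and red cells, had no mark at its own promoter or in its gene body in any library. Covered length upstream of it differed by 8.12 ± 1.9 kb (limma adjusted p = 0.086), with 16.8 and 15.8 kb in Kdm6b-cKO libraries, against 10.5 and 5.87 kb in WT libraries. The promoter of Lypd5, 21.1 kb upstream, was marked in all 4 libraries. Kcnn1 differed by 3.19 ± 0.73 kb (limma adjusted p = 0.085), with 7.41 and 8.34 kb in Kdm6b-cKO libraries, against 4.61 and 4.76 kb in WT libraries. Kcnn2, on chromosome 18, had 1.32 and 0.413 kb in Kdm6b-cKO libraries and 0 kb in both WT libraries, and did not pass.

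The Kcnip genes encode partners of Kv4 channels. Kcnip3, whose product is also known as a transcriptional repressor, was covered over the whole 50 kb in each Kdm6b-cKO library and over 36.1 and 28.4 kb in WT libraries. The difference of 17.7 ± 3.0 kb did not pass (limma adjusted p = 0.059). A single peak of 70.8 and 57.7 kb lay over the promoter in Kdm6b-cKO, against longest promoter peaks of 13.6 and 5.50 kb in WT. The window was full in Kdm6b-cKO, so it could show no further length there.

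Kcnip2, the partner of Kv4 channels in heart muscle, had 5.97 and 7.95 kb in Kdm6b-cKO libraries, against 2.41 and 1.04 kb in WT libraries (difference 5.24 ± 1.12 kb, limma adjusted p = 0.077). Its promoter share was 52.7% and 84.9% in Kdm6b-cKO and 40.1% and 17.3% in WT, a difference of 40.1 ± 17.5 points that did not pass (limma adjusted p = 0.324). Kcnip1 had 20.5 and 11.5 kb in Kdm6b-cKO libraries, against 10.9 and 9.66 kb in WT libraries, with a difference of 5.73 ± 3.49 kb (limma adjusted p = 0.33). Kcnip4 had 3.13 and 3.48 kb in Kdm6b-cKO libraries, against 2.44 and 1.55 kb in WT libraries, a difference of 1.31 ± 0.74 kb that did not pass (limma adjusted p = 0.299).

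The 6 calls in the wide window depended on the libraries and on the length of the lists. Leaving out Kdm6b-cKO replicate 3, Kdm6b-cKO replicate 4 or WT replicate 9 left 0 channel genes past the threshold, and also 0 of all genes tested. At an unadjusted p under 0.05, limma then gave 12 of 37, 20 of 41 and 11 of 42 channel genes higher and 0 lower, against 25%, 31.8% and 20.8% of all genes higher. Without WT replicate 7, 9 of 42 passed, against 13.1% of all genes tested. With lists of equal covered length, 1 of 34 channel genes tested was higher and 0 lower, while over all genes 68 were higher and 39 lower. The differences were then 21.4 kb at Kcnj11, 7.47 kb at Kcnj12, 9.65 kb at Kcnk1, 19.2 kb at Kcnk15, 12.1 kb at Kcnt1 and 8.63 kb at Kcnn3. After centring, 11 of 42 were higher and 0 lower, while over all genes 1430 were higher and 407 lower.

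**Figure D5:**
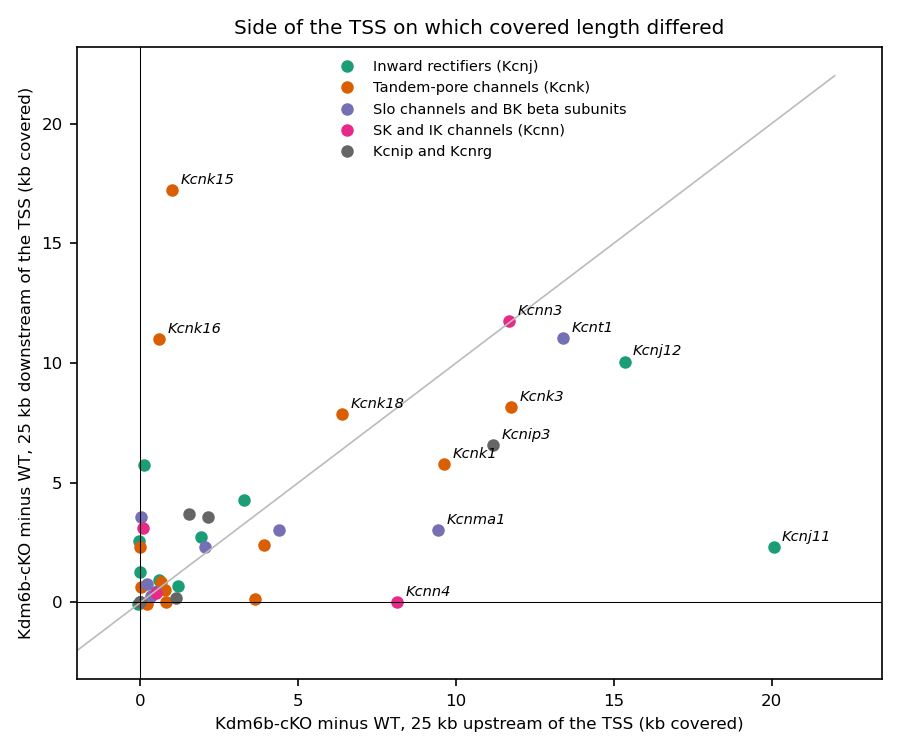
Kdm6b-cKO minus WT covered length in the 25 kb upstream (x axis, kb) against the 25 kb downstream (y axis, kb) of the TSS, 1 point per gene coloured by subfamily, with equal gain on the diagonal. Kcnj11 lies far right (20.1 and 2.32 kb), Kcnk15 far up (1.01 and 17.2 kb), and Kcnn3 on the diagonal.

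The gene bodies, a region the windows cover only in part, were also covered more in Kdm6b-cKO by median. Any part of the body was covered in at least 1 library at 40 of the 46 genes, against 30.9% of all genes, and each Kdm6b-cKO share exceeded either WT share at 26 of them, against 60.1% of all genes with any of the body covered. Each fell below either WT share at 1 (Kcnn2), against 0.548% of all genes. The median covered share of the body was 19.7% and 13.5% in Kdm6b-cKO replicates 3 and 4, and 4.43% and 4.6% in WT replicates 7 and 9.

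The fold over local background that the authors' caller gave the strongest promoter peak was highest at Kcnn1. There it was 6.05 and 6.10 in Kdm6b-cKO and 4.78 and 4.50 in WT. At Kcnk15 it was 4.06 and 4.43 in Kdm6b-cKO and 4.02 and 3.95 in WT, where the covered length differed 2.60-fold. The other wide-window calls had, in Kdm6b-cKO against WT, 3.59 and 3.74 against 3.04 and 3.28 at Kcnj11, and 4.25 and 4.50 against 3.42 and 3.65 at Kcnj12. Kcnk1 had 4.10 and 4.03 against 3.44 and 3.45, and Kcnt1 had 4.01 and 4.13 against 3.78 and 3.71. At Kcnn3 the values were 3.74 and 3.81 against 3.26 and 3.23. These fold values were not tested.

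Base composition of the promoters was described without a test. The median number of CG per kb of TSS ± 3 kb was 22.3 over the 27 channel promoters marked in all 4 libraries, 13 over the 10 marked in some and 14.2 over the 9 marked in none. Over all genes the medians were 22.5, 15.8 and 17.7. Channel promoters marked in every library thus had a median CG density close to that of other such promoters. The highest value was 41.8 per kb at Kcnk12, marked in full everywhere. The lowest among those marked in all 4 was 6.67 per kb at Kcnma1, where the 5′ end of the gene model may not be its main promoter.

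Of 17 genes whose products assemble with these proteins or act directly on them, 8 had a marked promoter in at least 1 library and 7 in all 4, against 28.8% and 15.2% of all genes. In the wide window 2 of 13 tested passed, Abcc8 and Kcnd3, both higher in Kdm6b-cKO, against 7.69% of all genes tested, and 0 were lower. Kcnd3, a Kv4 channel that the Kcnip proteins bind, had 16.8 and 16.0 kb covered in Kdm6b-cKO libraries, against 9.28 and 7.80 kb in WT libraries, a difference of 7.85 ± 0.90 kb (limma adjusted p = 0.039). The gamma subunits Lrrc55 and Lrrc26 of BK channels differed by 5.61 and 4.57 kb without passing. Calm2, Abcc9, Dpp6 and Gng2 held no mark within 25 kb.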

How the data were processed

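H3K27me3 ChIP-seq peaks of 2 Kdm6b-cKO and 2 WT libraries were analysed, grouped by sample title. The submitters' processing notes name MACS2 2.2.7.1, deepTools 3.5.1, SAMtools 1.9, Bowtie2 2.3.5.1 and mm10, and the study's methods describe subsampling to a like read number and broad peaks at q 0.01, called per library. The role of the input in calling is not given in the sources used here, and the input was not used. Each deposited list gives positions, a score, a fold ratio over local background and −log10 p and q as the authors' caller wrote them. Covered lengths were computed from the positions, the −log10 q served to rank and filter peaks, and the fold ratio was only described.

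Windows of 3 and 25 kb on either side of the GENCODE M21 gene start were intersected with peaks for 21728 protein-coding genes of 19 autosomes and X. Genes with at least 500 bp covered in 1 library were fitted with limma 3.58.1 (lmFit and eBayes, R 4.3.3) on genotype, with Benjamini-Hochberg adjustment over all genes tested and a threshold of 0.05. The fit was tested on simulated data. Sequences came from RefSeq and the GRCm38.p6 genome. Python 3.11.15, numpy 2.4.6, pandas 2.3.3 and matplotlib 3.10.9 were used.

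The genes and lists were chosen with earlier results of these data known. Library values were given for genes past limma at either width, promoters marked in both libraries of 1 genotype only, and the 3 largest differences at 25 kb in each subfamily, 19 genes in all. Kcnj2, Kcnj5, Kcnj8, Kcnj9, Kcnj10, Kcnk4, Kcnn2, Kcnip4, Lypd5 and Sohlh1 were named in addition after their values were seen. Alternatives were a −log10 q of at least 4, lists of equal peak number or covered length, leaving out each library, centring, other filters, windows and thresholds, and transcript start sites.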

Additional observations from a re-analysis of the deposited data

How the results depend on the processing

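No paired analysis was possible because the genotypes share no replicate numbers. Of 429 values recomputed for single genes, 338 kept direction and side of the threshold, 57 lost and 23 gained the call, and 11 changed sign. The 57 losses all fell on the 2 promoter and 6 wide-window calls, since no other result had a call to lose. Most of the 338 were past the threshold in neither setting, so their number does not measure how stable the calls were. Promoter calls (2 higher) became 4 at a −log10 q of at least 4, 1 with equal peak numbers, with equal covered length and with centring, and 0 without the filter or in TSS ± 1 kb, and ranged over 0 to 7 (0 to 1 for lower, Kcnj8 without Kdm6b-cKO replicate 3) when a library was left out. Wide-window calls (6 higher) became 3 at the stricter q, 1 with equal length, 11 with centring, 0 without the filter and 3 in TSS ± 10 kb, and ranged over 0 to 9 when a library was left out. These counts were not always of the same genes. At the stricter q the promoter calls were Kcnip3, Kcnip4, Kcnj11 and Kcnk10, without Kcnj6 or Kcnk18. The wide-window calls were then Kcnip3, Kcnk15 and Kcnn4, of which only Kcnk15 was among the 6. The single promoter call was Kcnj6 with equal peak numbers or equal length, and Kcnk18 with centring. In TSS ± 5 kb the promoter calls were again 2, but of Kcnj11 and Kcnk9. Both main calls were lost there, with a limma adjusted p of 0.060 at Kcnj6 and 0.057 at Kcnk18. Without the filter, an unadjusted p under 0.05 in limma took 12 genes higher and 0 lower in the wide window, and 5 and 0 at the promoter. Promoters marked in all 4 libraries fell to 17 at the stricter q. Those marked in both Kdm6b-cKO libraries only (3) became 5 at the stricter q, 1 with equal length and 1 at 1500 bp, and ranged over 3 to 8 when a library was left out. Those marked in none (9) became 17 both at the stricter q and with equal length, and ranged over 9 to 14. The median difference (2.85 kb) became 1.41 kb at the stricter q, 2.03 kb with equal peak numbers, 0.759 kb with equal length and -1.20 kb with centring over all 46 genes, and ranged over 1.96 to 3.41 kb without 1 library. Centring gave differences of the opposite sign in promoter share at Kcnip1 (-12.4 points), Kcnip3 (-9.97), Kcnk3 (-14.9), Kcnmb1 (-11.9), Kcnt1 (-7.30) and Kcnn1 (-12.3), and in wide-window length at Kcnj6 (-1.54 kb) and Kcnn1 (-0.865 kb). Equal covered length did so in wide-window length at Kcnj1 (-1.49 kb), Kcnk18 (-0.009 kb) and Kcnmb1 (-1.75 kb). The cause of these changes was not tested. With 2 libraries per genotype, shares bounded at 0% and 100% and no read counts, small differences cannot be resolved.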
